A study of Rattus norvegicus with 16 samples.

Results

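The ligands and receptors of the platelet-derived growth factor (PDGF) and fibroblast growth factor (FGF) families were examined in the rat thoracic aorta from 3 to 28 months of age. They were Pdgfa, Pdgfra, Pdgfrb, Fgf1, Fgf2, Fgfr1 and Fgfr2, 7 of the 4736 genes with their own symbol on the array. These 7 were chosen by name, with earlier results of these data known. They were read by all 17 of the 8799 probe sets to which the platform annotation gives one of these symbols alone. Of the 17, 11 were bright enough to be among the 5250 tested, and each of the 7 genes had at least 1 of them. The remaining 6 are described by their signals.

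Rats of 4 ages were compared, 3, 6, 15 and 28 months, with 4 animals per age and 1 Affymetrix RG_U34A array per animal. The labels name no strain, sex or treatment, so age is the one stated difference between the groups. A 1 cm piece of descending thoracic aorta was taken from each animal, and RNA was made from the whole piece. Whether adherent fat was stripped off is not stated in the labels.

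PDGF ligands bind as dimers to the receptor tyrosine kinases PDGFR-alpha and PDGFR-beta, and PDGF-A acts through the alpha receptor. In the vessel wall PDGF is known as a growth and migration signal of smooth muscle cells and fibroblasts. FGF ligands bind FGF receptors together with heparan sulfate, and FGF-1 and FGF-2 lack a classical signal peptide and are stored in the matrix. Activated receptors of both families signal through RAS and the MAP kinases, through PI3 kinase and AKT, and through phospholipase C gamma.

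The text below gives the promoters of Pdgfa and Fgfr2, the members whose arrays at 28 months lay above all arrays at 3 months on 1 probe set each. Each is the 250 bases before the gene's start in the RefSeq annotation of the rat, build GRCr8, read 5′ to 3′ on the gene's strand. Pdgfa lies on chr12:20759366-20780337 and its window on the plus strand is chr12:20759116-20759365. Fgfr2 lies on chr1:194175703-194280914 and its window on the minus strand is chr1:194280915-194281164. Capitals mark the GC box GGGCGG and the Egr motif GCGNGGGCG on either strand.
Pdgfa promoter: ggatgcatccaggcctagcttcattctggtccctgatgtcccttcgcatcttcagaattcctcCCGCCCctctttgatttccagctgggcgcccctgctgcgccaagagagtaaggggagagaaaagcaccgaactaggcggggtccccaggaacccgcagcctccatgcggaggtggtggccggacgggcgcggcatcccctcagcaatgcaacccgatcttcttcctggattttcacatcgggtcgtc
Fgfr2 promoter: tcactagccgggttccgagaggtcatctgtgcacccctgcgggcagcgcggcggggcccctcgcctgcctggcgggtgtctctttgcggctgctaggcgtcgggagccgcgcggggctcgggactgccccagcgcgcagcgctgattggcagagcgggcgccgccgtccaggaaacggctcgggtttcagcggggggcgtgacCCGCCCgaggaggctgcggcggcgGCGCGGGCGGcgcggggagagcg
The Pdgfa window held 1 GC box, and the Fgfr2 window held 2 GC boxes and 1 Egr motif, one of the GC boxes overlapping the Egr motif. Of the 33469 rat promoter windows of this length, 30.5% held a GC box and 4.29% the Egr motif. Neither window held the AP-1 motif TGANTCA, the TATA motif TATAAA or a CArG box, found in 6.34%, 12.9% and 1.5% of the windows. Their GC content was 60.8% for Pdgfa and 76.8% for Fgfr2, against a median of 51.2% over all windows.

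The arrays differed in tissue makeup, in a measure of RNA integrity and in hybridisation day. Markers of smooth muscle were bright at every age: all 6 of the 10 listed genes that the array holds passed the filter, with summed signals from 127373 to 225388 at 3 months and from 185235 to 233523 at 28 months. An adipocyte marker score, the mean log2 value of 20 adipocyte and brown fat genes, was 12.86 ± 0.48 at 3 months, 12.94 ± 0.61 at 6, 11.79 ± 1.53 at 15 and 11.33 ± 0.61 at 28 months (SD, n = 4 each). All 4 arrays at 28 months lay below all 4 at 3 months (difference -1.53, exact permutation p = 0.0286, 2-sided, the smallest that 4 against 4 allow; adjusted p = 0.143 over 5 comparisons). At 15 months replicates 1 and 2 scored 13.24 and 12.97, and replicates 3 and 4 both scored 10.46. The beta-actin 3′/5′ signal ratio, a measure of RNA integrity, reached 3.202 for the 4th replicate of the 15-month group and 3.8201 for that of the 28-month group, while the remaining 14 arrays lay between 1.2414 and 1.7722. Day 1 of hybridisation held replicates 1 and 2 of every age, and day 2 held the others. Because the pieces were whole tissue, more cells of a type and more RNA per cell cannot be told apart.

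Signals below are MAS5 signals of replicates 1 to 4 in that order. Differences and means are on the log2(signal + 16) scale, which understates changes of dim probe sets. Unless another test is named, p-values are limma's, with Benjamini-Hochberg adjustment over all 5250 probe sets tested and a threshold of 0.05.

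Pdgfa, which encodes the A chain of PDGF, had a higher mean at 28 than at 3 months on both of its probe sets, and it rose with age by the slope test on the brighter one. On D10106_s_at the 4 signals were 296, 286, 231 and 277 at 3 months and 325, 132, 380 and 390 at 6 months. They were 353, 579, 854 and 792 at 15 months and 653, 1006, 546 and 710 at 28 months. All arrays at 15 and at 28 months lay above all arrays at 3 months, and the lowest at 28 months lay above the highest at 6 months. The arrays at 28 and 3 months did not overlap for 17.7% of all probe sets. The shares for 15 against 3 months and 28 against 6 months were not counted. The mean went from 8.17 ± 0.15 at 3 months to 8.23 ± 0.69 at 6, 9.29 ± 0.56 at 15 and 9.51 ± 0.36 at 28 months.

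The slope of Pdgfa on age over the 16 arrays was 0.058 log2 units per month (SE 0.012, limma adjusted p = 0.0124), which comes to 1.45 over the 25 months. It passed the threshold with each array left out in turn (adjusted p from 0.0102 to 0.0411) and with the replicate block (adjusted p = 0.0057). At 28 against 3 months the difference was 1.34 (SE 0.33, 2.53-fold) with a limma adjusted p of 0.0573, just over the threshold, and 0.0275 with the replicate block. It was 1.43 within day 1 and 1.25 within day 2. With the adipocyte marker score as a covariate the difference was 0.84 (adjusted p = 0.396) and the slope 0.033 (adjusted p = 0.388), and with the note on cRNA amount as a covariate the slope was 0.054 (adjusted p = 0.0672).

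The dimmer Pdgfa probe set, Z14120cds_s_at, read 157, 445, 145 and 242 at 3 months and 189, 360, 277 and 319 at 6 months. It read 250, 311, 388 and 349 at 15 months and 339, 933, 397 and 273 at 28 months. The ages overlapped, since replicate 2 at 3 months was above 3 of the arrays at 28 months. Its difference at 28 against 3 months was 0.90 (SE 0.37, adjusted p = 0.185), and its slope was 0.033 per month (adjusted p = 0.0902, or 0.0278 with the replicate block). The changes of the 2 Pdgfa probe sets differed by 0.44, which the replicate error does not separate (exact permutation p = 0.4, adjusted p = 0.653 over 10 such pairs).

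**Figure D1:**
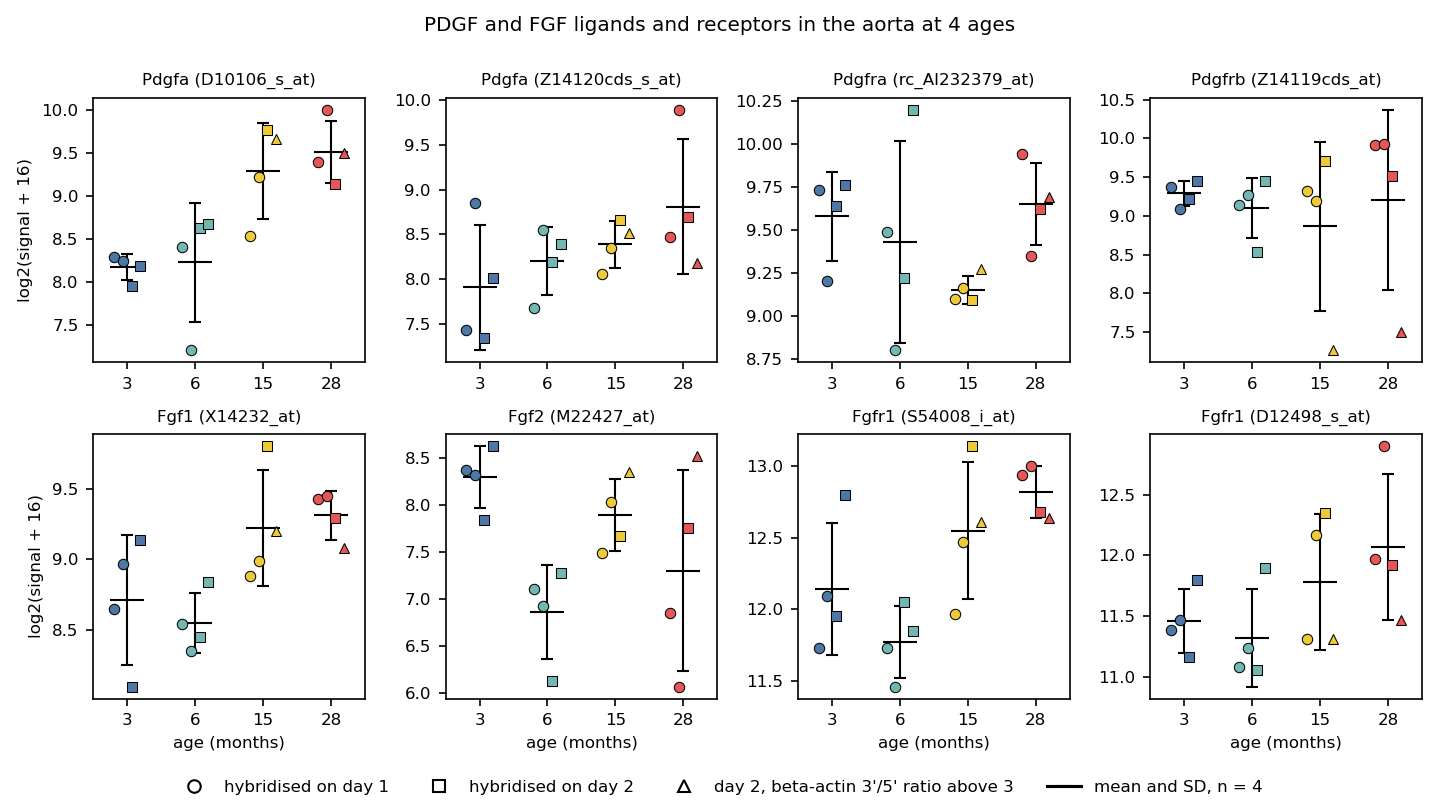
Level of 8 tested probe sets of Pdgfa, Pdgfra, Pdgfrb, Fgf1, Fgf2 and Fgfr1 as log2(signal + 16) on the y axis at 3, 6, 15 and 28 months on the x axis, 1 point per array, with the mean and SD of 4 arrays as bars. Pdgfa D10106_s_at at 15 and 28 months sits above all arrays at 3 months, Fgf2 M22427_at at 6 months sits below all arrays at 3 months, and the 2 low Pdgfrb points at 15 and 28 months are the arrays with a beta-actin ratio above 3. Each panel has its own y axis.

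Fgf1, acidic FGF, a ligand able to bind all FGF receptors, was among the genes whose slope passed. Its probe set X14232_at read 386, 484, 257 and 549 at 3 months and 356, 310, 335 and 442 at 6 months. It read 454, 494, 873 and 570 at 15 months and 674, 683, 610 and 526 at 28 months. At 28 months all arrays lay above all arrays at 6 months, but replicate 4 was below the highest array at 3 months. How many of all probe sets had no overlap at 28 against 6 months was not counted. Means were 8.71 ± 0.46, 8.55 ± 0.21, 9.22 ± 0.41 and 9.31 ± 0.17 at the 4 ages. The slope was 0.030 per month (SE 0.0091, adjusted p = 0.0433), and the difference at 28 against 3 months was 0.60 (SE 0.24, adjusted p = 0.179). The difference was 0.63 within day 1 and 0.57 within day 2, and 0.29 with the adipocyte marker score as a covariate (adjusted p = 0.798).

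Fgf2, basic FGF, a growth factor of smooth muscle and endothelial cells, was the ligand that did not have a higher mean in old animals on its brighter probe set. M22427_at read 315, 302, 212 and 378 at 3 months and 121, 106, 54 and 138 at 6 months. It read 164, 245, 188 and 310 at 15 months and 99, 51, 200 and 352 at 28 months. All arrays at 6 months lay below all arrays at 3 months, while the arrays at 28 months ran from below the lowest at 6 months to within the range at 3 months. The difference at 6 against 3 months was -1.43 (SE 0.44, unadjusted p = 0.00492), with an adjusted p of 1.00. At 28 against 3 months it was -0.99 (SE 0.44, adjusted p = 0.204), being -1.88 within day 1 and -0.09 within day 2. The slope was -0.015 per month (adjusted p = 0.646). The other probe set, X07285cds_s_at, was dim at 12 to 153 and was not tested. Its difference at 28 against 3 months in a fit with no filter was 0.80 (adjusted p = 0.566), opposite in sign to that of M22427_at.

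Of the PDGF receptors, Pdgfra, the receptor for PDGF-A on fibroblasts and other mesenchymal cells, showed no detectable difference on the 1 probe set that was bright enough. rc_AI232379_at read 833, 571, 783 and 851 at 3 months and 706, 429, 581 and 1163 at 6 months. It read 531, 555, 530 and 602 at 15 months and 964, 636, 769 and 808 at 28 months. The arrays at 28 months overlapped those at 3 months, with 1 of them above all at 3 months. The difference was 0.07, with a 95% interval from -0.46 to 0.59 (adjusted p = 0.899). The other 3 Pdgfra probe sets were dim, with signals of 4 to 17 on rc_AI137657_at, 6 to 140 on Z14118cds_at and 19 to 207 on Z14118cds_g_at. Their differences in the fit with no filter were -0.26, -0.29 and -1.10, with adjusted p-values of 0.391 or more.

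Pdgfrb, the receptor that PDGF-B acts on in smooth muscle cells and pericytes, had its 2 lowest values on the arrays whose beta-actin ratio was high. Z14119cds_at read 647, 531, 582 and 685 at 3 months and 550, 601, 356 and 682 at 6 months. It read 621, 566, 821 and 138 at 15 months and 946, 958, 712 and 165 at 28 months. Replicates 1 to 3 at 28 months lay above all arrays at 3 months, and replicate 4 lay far below them. The difference at 28 against 3 months was -0.07, with a 95% interval from -1.18 to 1.03 (adjusted p = 0.949). Without the 2 arrays with a beta-actin ratio above 3 it was 0.50 (SE 0.23, adjusted p = 0.282). Within day 1, which holds neither of them, it was 0.69 (adjusted p = 0.0812), and within day 2 it was -0.83. The part that RNA quality has in the 2 low values was not tested.

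Fgfr1, the FGF receptor abundant in mesenchymal tissues, was bright on 2 probe sets, and it rose with age by the slope test on S54008_i_at. That probe set read 3390, 4354, 3929 and 7130 at 3 months and 3374, 2804, 4224 and 3667 at 6 months. It read 3999, 5650, 8996 and 6232 at 15 months and 7816, 8198, 6568 and 6366 at 28 months. All arrays at 28 months lay above all arrays at 6 months, for which the share over all probe sets was not counted. Replicate 4 at 3 months lay among those at 28 months. The slope was 0.036 per month (SE 0.0099, adjusted p = 0.0322), and the difference at 28 against 3 months was 0.67 (SE 0.25, 1.59-fold, adjusted p = 0.162). It was 1.06 within day 1 and 0.29 within day 2, and 0.28 with the adipocyte marker score as a covariate (adjusted p = 0.786).

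D12498_s_at of Fgfr1 read 2673, 2816, 2276 and 3545 at 3 months and 2146, 2404, 2121 and 3810 at 6 months. It read 2525, 4579, 5221 and 2515 at 15 months and 4003, 7640, 3869 and 2822 at 28 months. The ages overlapped. Its difference at 28 against 3 months was 0.61 (SE 0.31, adjusted p = 0.257), close in size to the 0.67 of S54008_i_at, and its slope was 0.029 per month (adjusted p = 0.0844). AF000144_at was dim at 39 to 183 and was at 0.56 in the fit with no filter (adjusted p = 0.580). A probe set for the pseudogene Fgfr1-ps1, which is no member, was at -0.42 (adjusted p = 0.497).

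Fgfr2, a receptor whose alternative exons give forms typical of epithelium and of mesenchyme, had 4 probe sets, which are described one by one. The files do not say which form each probe set reads. Z35138cds_s_at read 143, 50, 95 and 294 at 3 months and 190, 174, 248 and 514 at 6 months. It read 212, 220, 784 and 262 at 15 months and 570, 582, 437 and 306 at 28 months. All arrays at 28 months lay above all arrays at 3 months, by a small margin for replicate 4. The difference was 1.78 (SE 0.49, 3.44-fold, adjusted p = 0.0753, or 0.0332 with the replicate block), the largest of the 11 tested probe sets. It was 2.53 within day 1 (adjusted p = 0.0087) and 1.04 within day 2 (adjusted p = 0.511). The day 1 fit used only replicates 1 and 2 of each age. In it 699 probe sets passed the threshold at 28 against 3 months, against 67 with all arrays and 0 within day 2. The slope was 0.059 per month (SE 0.018, adjusted p = 0.0429). With the adipocyte marker score as a covariate the difference was 1.12 (adjusted p = 0.509).

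L19112_g_at of Fgfr2 read 205, 187, 114 and 241 at 3 months and 175, 217, 171 and 265 at 6 months. It read 134, 226, 328 and 195 at 15 months and 379, 466, 396 and 204 at 28 months. Replicates 1 to 3 at 28 months lay above every array of the younger ages, and replicate 4, an array with a high beta-actin ratio, lay within the range at 3 months. The difference was 0.88 (SE 0.31, adjusted p = 0.148), and the slope was 0.033 per month (adjusted p = 0.0532, or 0.0477 with the replicate block).

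L19107_s_at of Fgfr2 had a lower mean at 28 than at 3 months, with overlapping arrays. It read 263, 327, 157 and 77 at 3 months and 351, 72, 152 and 261 at 6 months. It read 344, 454, 435 and 298 at 15 months and 428, 139, 66 and 71 at 28 months. The arrays at 15 months were high and alike, and those at 28 months ran from the low end to the high end of all ages. The difference at 28 against 3 months was -0.41 (SE 0.55, adjusted p = 0.688), and at 28 against 15 months it was -1.40 (unadjusted p = 0.0214, adjusted p = 0.967).

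The 4th Fgfr2 probe set, L19112_at, was below the filter. It read 68, 86, 47 and 177 at 3 months and 71, 396, 163 and 328 at 6 months. It read 44, 55, 509 and 42 at 15 months and 372, 291, 378 and 50 at 28 months. At 15 months replicate 3 stood far above the other arrays, and at 28 months replicate 4 stood far below them. Its difference at 28 against 3 months in the fit with no filter was 1.22 (adjusted p = 0.440).

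Whether the Fgfr2 probe sets changed by different amounts was tested on the difference between probe sets within each array. L19107_s_at minus Z35138cds_s_at was 0.81, 2.37, 0.64 and -1.73 at 3 months and -0.40, -1.95, -2.47 and -1.88 at 28 months. The change of this difference was -2.20 (exact permutation p = 0.0571, adjusted p = 0.286 over 10 pairs of probe sets). For L19112_g_at it was -0.90 (exact permutation p = 0.0571, adjusted p = 0.286), and for L19112_at -0.56 (exact permutation p = 0.457, adjusted p = 0.653). Paired by replicate number, the changes were -1.21, -4.32, -3.11 and -0.15 for L19107_s_at and -1.04, -1.92, -0.37 and -0.28 for L19112_g_at, below 0 in 4 of 4 pairs each (exact sign-flip permutation p = 0.125, the smallest that 4 pairs allow). None of the 10 pairs, over all members with several probe sets, passed the threshold. The smallest p this design allows is 0.0286, which for a single pair alone becomes 0.286 after adjustment over 10. A difference limited to 1 pair, or to the Fgfr2 pairs, thus could not have passed. The test therefore could not tell whether the Fgfr2 probe sets changed alike.

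**Figure D2:**
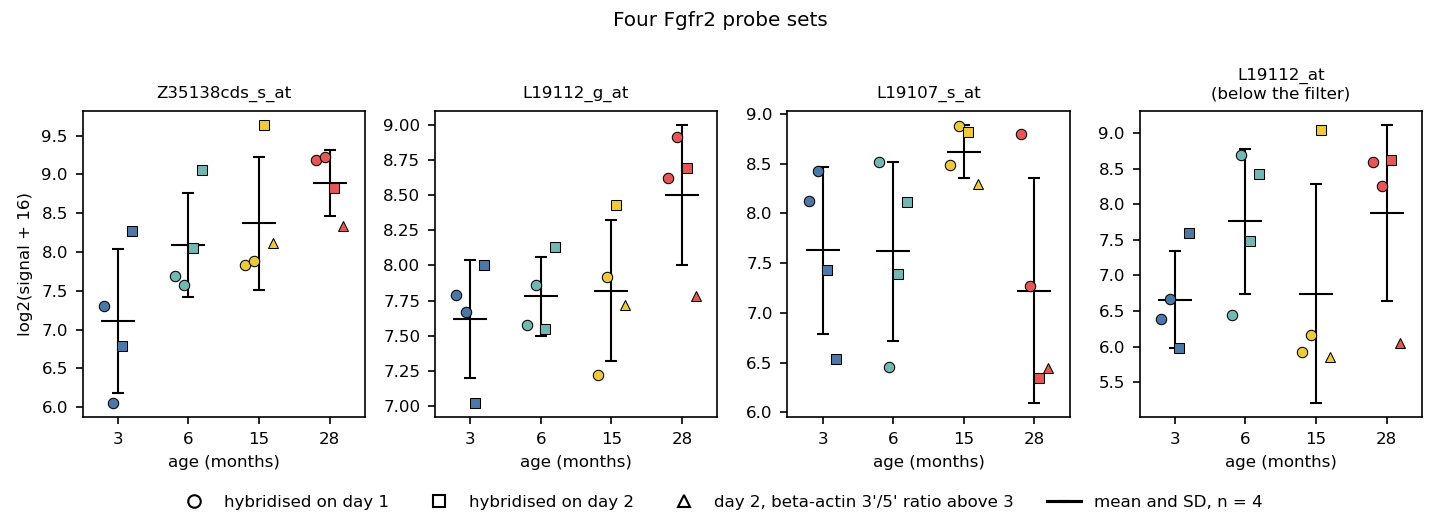
The 4 Fgfr2 probe sets as log2(signal + 16) on the y axis at 3, 6, 15 and 28 months on the x axis, 1 point per array, with the mean and SD of 4 arrays as bars. On Z35138cds_s_at all arrays at 28 months sit above those at 3 months, on L19107_s_at the arrays at 28 months spread from 66 to 428 in signal, and each panel has its own y axis.

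Across the 11 tested probe sets, 0 passed the threshold at 28 against 3 months in the limma fit without the replicate block, where 1.28% of all probe sets did. At an unadjusted p under 0.05 there were 7 of 11, where 22.4% of all probe sets had one. Pdgfa and Fgfr2 were among them with several probe sets each, and Fgf2 was lower at 28 months (-0.99). The members were chosen with earlier results of these data known, so their shares are a description. Of the 11, 8 had a difference above 0, with a median of 0.61, against 55.2% and a median of 0.06 over all probe sets. With the replicate block 2 of 11 passed, Pdgfa D10106_s_at and Fgfr2 Z35138cds_s_at, both higher, where 12.2% of all probe sets passed and 6.53% were higher. The same 2 were those whose arrays at 28 and 3 months did not overlap, which held for 17.7% of all probe sets. These 2 shares of the members are near the background.

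On the slope, 4 of 11 passed, all higher with age: Pdgfa D10106_s_at, Fgfr1 S54008_i_at, Fgf1 X14232_at and Fgfr2 Z35138cds_s_at. Over all probe sets 13.3% passed and 7.41% were higher with age. With the replicate block 6 of 11 passed, where 25.2% of all probe sets did. The calls other than that of Pdgfa were close to the threshold. Of the 16 fits that leave out 1 array, the slope of Fgfr1 S54008_i_at did not pass in 8, that of Fgf1 in 9 and that of Fgfr2 Z35138cds_s_at in 10, with adjusted p up to 0.0727, 0.0866 and 0.0898. All 3 failed without replicates 1 or 3 at 3 months, replicates 1, 2 or 3 at 6 months, or replicates 1, 2 or 4 at 28 months. Fgf1 and Fgfr2 also failed without replicate 3 at 28 months, and Fgfr2 without replicate 2 at 3 months. Leaving out any array at 15 months kept all 3 past the threshold. With the adipocyte marker score as a covariate 0 of 11 slopes passed, as with the cRNA note as a covariate. In these fits 0.476% and 1.5% of all probe sets passed, so that 0 of 11 is near the background.

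The other comparisons between ages called no member. At 6 against 3 months 0% of all probe sets passed, and 1 member probe set, that of Fgf2, had an unadjusted p under 0.05, as 2.88% of all probe sets did. Its arrays did not overlap, which held for 1.6% of all probe sets. At 15 against 3 months 0.0952% of all probe sets passed and 7.09% had an unadjusted p under 0.05. So did 2 member probe sets, Pdgfa D10106_s_at at 1.13 (adjusted p = 0.443) and Fgfr2 Z35138cds_s_at at 1.26 (adjusted p = 0.641). At 15 against 6 months 0.019% passed and 7.49% had an unadjusted p under 0.05. So did 4 member probe sets, Pdgfa at 1.06, Fgf2 at 1.03, Fgfr1 at 0.78 and Fgf1 at 0.67, all with an adjusted p of 0.605. At 28 against 15 months 0% passed and 3.52% had an unadjusted p under 0.05, as did 2 member probe sets, both of Fgfr2. They were opposite in sign, L19107_s_at at -1.40 and L19112_g_at at 0.68, each with an adjusted p of 0.967. The test of any difference between the 4 ages called 0 members, where 0.648% of all probe sets passed, with 5 members at an unadjusted p under 0.05, where 15.9% of all probe sets were. Pdgfa D10106_s_at came nearest (adjusted p = 0.0870, or 0.0434 with the replicate block).

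**Figure D3:**
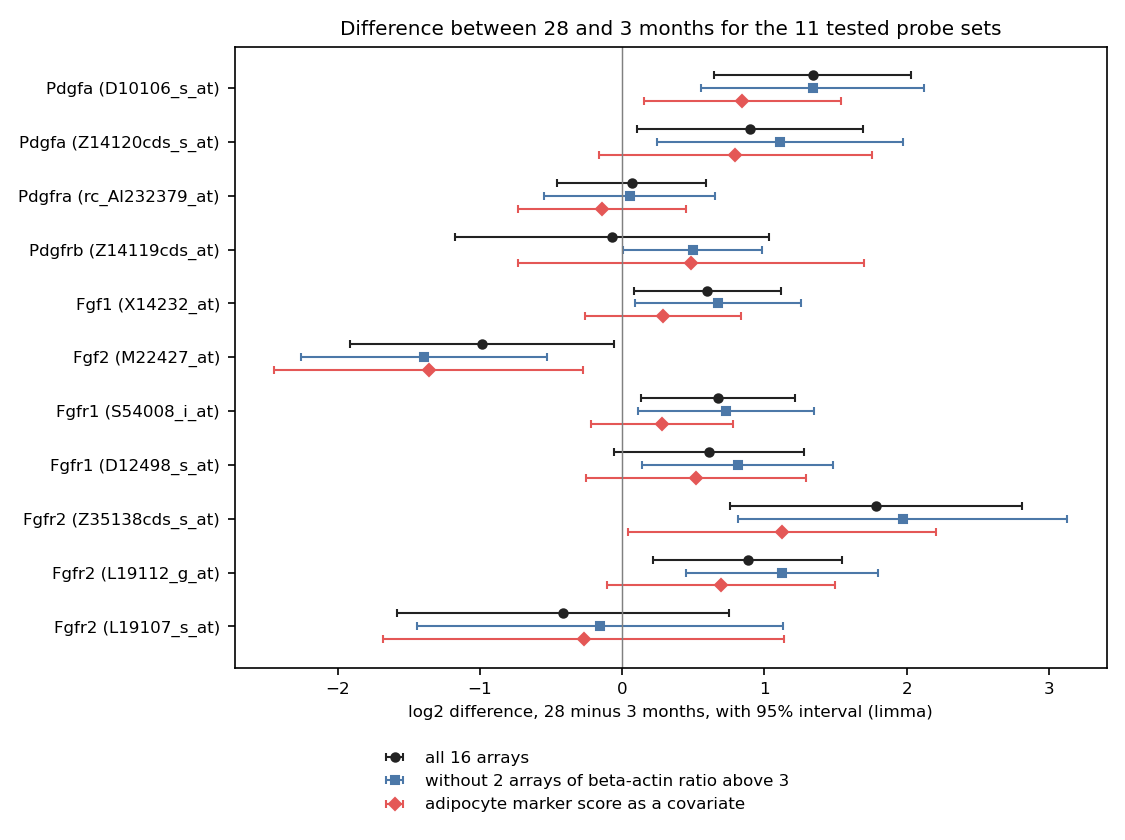
Log2 difference between 28 and 3 months on the x axis for the 11 tested probe sets on the y axis, with 95% intervals from limma that are not adjusted for the number of probe sets. Black points use all 16 arrays, blue points leave out the 2 arrays with a beta-actin ratio above 3 and red points have the adipocyte marker score as a covariate. Pdgfrb moves from -0.07 to 0.50 without the 2 arrays, and Fgfr2 Z35138cds_s_at from 1.78 to 1.12 with the score.

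The 4 probe sets whose slope passed were also high on the arrays with a low adipocyte marker score at 15 months. At 15 months the arrays with a score of 10.46 had Pdgfa signals of 854 and 792, against 353 and 579 on the other arrays of that age. For Fgf1 they were 873 and 570 against 454 and 494, and for Fgfr1 S54008_i_at 8996 and 6232 against 3999 and 5650. For Fgfr2 Z35138cds_s_at they were 784 and 262 against 212 and 220. The arrays with the low score had the higher signals in each of these 4 cases. Both were hybridised on day 2 and the others on day 1, so score and day cannot be told apart here. Replicate 4, one of those with the low score, also had a beta-actin ratio of 3.202 and bore the cRNA note. Adipocyte markers, 13 of 18 listed genes being on the array, summed to signals of 98898 to 230163 at 3 months, 29087 to 226483 at 15 and 38378 to 93602 at 28 months. Brown fat markers, 8 of 11 on the array, summed to 65708 to 135769 at 3 months and 14418 to 46840 at 28 months. Pericyte markers, 4 of 7 on the array, summed to 4973 to 7792 at 3 months and 9135 to 10922 at 28 months. Macrophage markers, 8 of 11 on the array, summed to 8244 to 12204 at 3 months and 5533 to 7975 at 28 months, also without overlap. The sum is weighted to bright genes. Of the 6 macrophage markers tested, 3 had a difference above 0 at 28 against 3 months (median -0.04), and 0 passed the threshold. Of the 4 pericyte markers tested, 3 were above 0 (median 0.75, or 0.24 with the score as a covariate), and 0 passed. With the replicate block 1 of each list passed. Sums overlapped for endothelial markers (2475 to 3073 at 3 months, 1860 to 3632 at 28 months). They also overlapped for fibroblast markers (156566 to 169900 at 3 months, 155074 to 185189 at 28 months). The part of these cell types in the members' differences was not tested beyond the covariate fit.

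**Figure D4:**
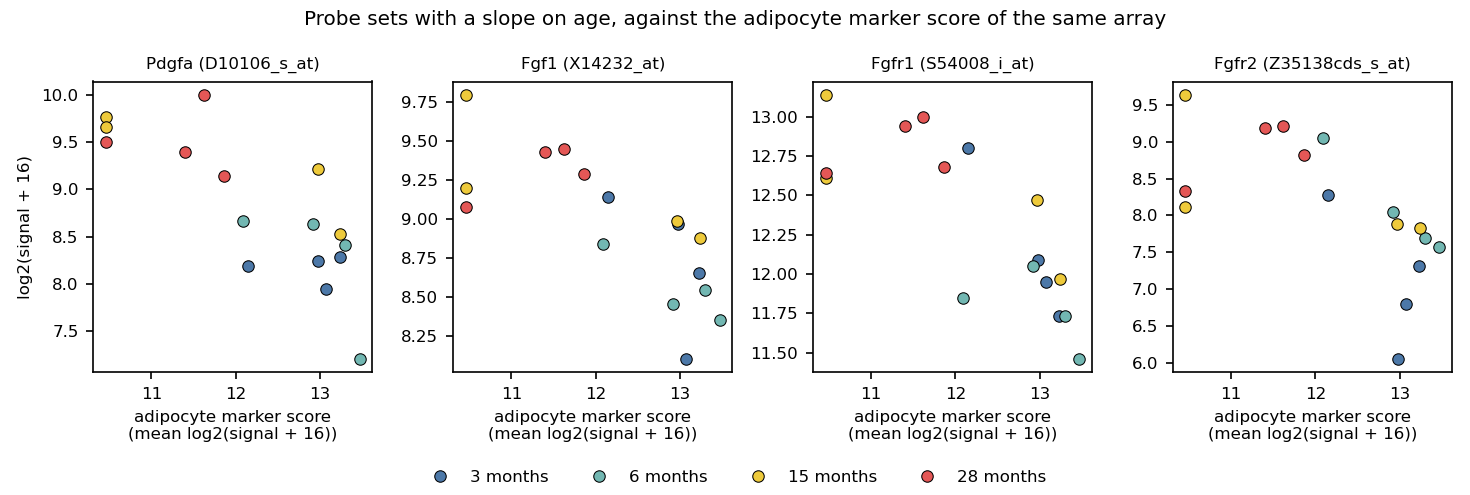
Level of Pdgfa, Fgf1, Fgfr1 and Fgfr2 as log2(signal + 16) on the y axis against the adipocyte marker score of the same array, a mean of log2(signal + 16), on the x axis, 1 point per array, coloured by age. The arrays at 28 months lie between 10.46 and 11.86 on the score, and 2 of the arrays at 15 months lie at 10.46 with higher levels than the other 2.

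Pdgfa, Fgf1, Fgfr1 and Fgfr2 varied together over the arrays more closely than the other members. Over the 16 arrays, on the brightest probe set of each gene, Pearson's r was 0.88 between Fgf1 and Fgfr1, 0.81 between Pdgfa and Fgfr1 and 0.80 between Pdgfa and Fgf1. Fgfr2 had r of 0.70 with Fgf1, 0.68 with Pdgfa and 0.65 with Fgfr1. Pdgfra had r from 0.06 to 0.26 with every other member. Pdgfrb ran from -0.38 with Fgf2 to 0.24 with Fgfr2, and Fgf2 from -0.38 to 0.15. These values are a description, since the arrays share ages, days and tissue makeup.

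The genes whose pattern over the 16 arrays was most like each member were found among 4351 to 4353 probe sets with 1 other symbol, depending on the member. For Pdgfa they were Gyg1, Rrad and P2rx4 (r from 0.908 to 0.931), and for Fgf1 they were Plpp1, Fxyd1 and Pygm (0.905 to 0.929). For Fgfr1 they were Cst3, Prkcd and Sparcl1 (0.926 to 0.933), and for Fgfr2 Chn2, Fat1 and Gls2 (0.883 to 0.912). For Pdgfrb they were Scd2, Ncl and Eef2 (0.910 to 0.922). Pdgfra and Fgf2 had no neighbour as close, with Dab2, Gda and Ctsh for Pdgfra (0.764 to 0.781) and Copz1, Krt14 and Apoc1 for Fgf2 (0.720 to 0.808).

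The other genes of the pathway were read from lists by role, 1 probe set per gene, the brightest. The genes named below were picked by their result at 28 against 3 months. That their arrays at these ages do not overlap is thus no added support. Of the other PDGF and FGF ligands and receptors, 11 of 29 were on the array and 3 were bright enough, and 0 passed at 28 against 3 months. Fgf7, a ligand that mesenchymal cells make for epithelium, was at -0.28 (adjusted p = 0.624), and Fgf9 was at -0.35 (adjusted p = 0.726). The median of the 3 was -0.28, against 0.06 over all probe sets. Pdgfb, Fgf5, Fgf10, Fgf14, Fgf16, Fgf17, Fgf18 and Fgfr4 were on the array below the filter.

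Of the heparan sulfate carriers and their enzymes, on which FGF binding depends, 10 of 19 were tested, and 1 rose and 0 fell at 28 against 3 months (median 0.30). Over all probe sets 1.28% passed. The gene that rose was Sdc1, syndecan 1, a cell surface carrier of heparan sulfate. Its signals ran from 299 to 454 at 3 months with a median of 374, and from 629 to 813 at 28 months with a median of 719. The groups did not overlap, which held for 17.7% of all probe sets. The difference was 0.92 (SE 0.20, adjusted p = 0.0306, or 0.244 with the adipocyte marker score as a covariate). Another Sdc1 probe set was at 0.27 (adjusted p = 0.660).

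Of the genes that carry the signal inward, 24 of 43 were tested, with a median of 0.16, and 0 passed at 28 against 3 months. With the replicate block, where 12.2% of all probe sets passed, 1 fell. It was Akt2, a kinase of the PI3 kinase pathway that is important in insulin action. Its difference was -0.81 (adjusted p = 0.180, or 0.0298 with the block), and with the adipocyte marker score as a covariate it was -0.08 (adjusted p = 0.957). The groups overlapped, with signals from 536 to 1119 at 3 months and from 270 to 555 at 28 months. Another Akt2 probe set was at -1.66 (adjusted p = 0.308, or 0.101 with the block). On the slope 3 rose and 1 fell, or 5 and 1 with the replicate block, and 0 passed with the score as a covariate. The 3 of 24 that rose are near the 7.41% of all probe sets that did.

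Of the genes that restrain the signal, 10 of 22 were tested, with a median of 0.02, and 0 passed at 28 against 3 months, while 2 rose with the replicate block. With the block 12.2% of all probe sets passed and 6.53% were higher. Dusp6, the phosphatase that removes phosphate from ERK and is itself induced by ERK signalling, had signals from 737 to 1603 at 3 months and from 2220 to 3111 at 28 months. The groups did not overlap, which held for 17.7% of all probe sets. The difference was 1.00 (SE 0.29, adjusted p = 0.0885, or 0.0212 with the block). Another Dusp6 probe set was at 1.41 (adjusted p = 0.122). Grb14, an adaptor that binds activated receptor kinases and the insulin receptor, had overlapping groups. Its signals ran from 822 to 1791 at 3 months and from 1757 to 3114 at 28 months. The difference of Grb14 was 0.99 (adjusted p = 0.162, or 0.0152 with the block). Dusp6 and Grb14 both had a slope that passed (adjusted p = 0.0211 and 0.0437). With the adipocyte marker score as a covariate neither slope passed (adjusted p = 0.520 for Dusp6 and 0.907 for Grb14), and the differences were 0.54 and 0.16.

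Of the transcription factors and early genes that growth factors induce, 11 of 24 were tested, and 1 rose and 0 fell at 28 against 3 months (median 0.22). Over all probe sets 1.28% passed. The gene that rose was Ccnd1, cyclin D1, which carries growth factor signals to the cell cycle. Its signals ran from 455 to 1024 at 3 months with a median of 569, and from 1044 to 1888 at 28 months with a median of 1747. The groups did not overlap, which held for 17.7% of all probe sets, and the margin was small. The difference was 1.31 (SE 0.26, adjusted p = 0.0224), and 1.44 with the adipocyte marker score as a covariate (adjusted p = 0.0443). Of its other probe sets, 1 was at 1.25 (adjusted p = 0.0298), 1 at 1.51 (adjusted p = 0.0533, or 0.0264 with the replicate block) and 1 at -0.11 (unadjusted p = 0.678).

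**Figure D5:**
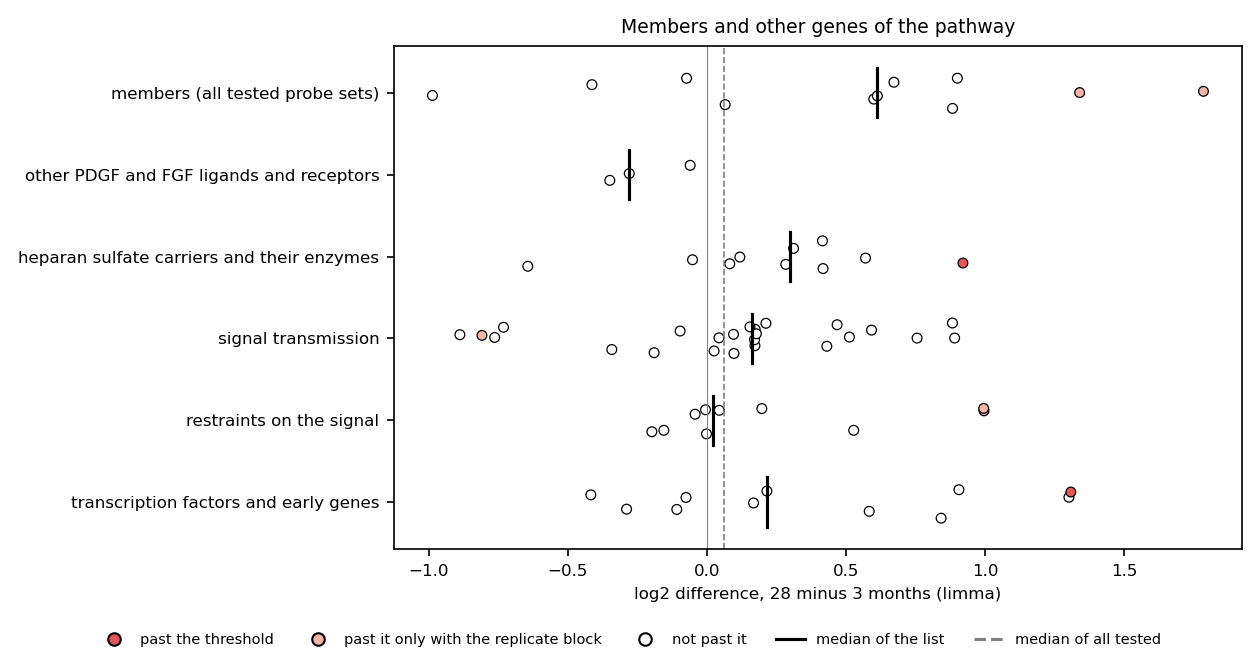
Log2 difference between 28 and 3 months on the x axis for the 11 tested member probe sets and for the tested genes of 5 pathway lists on the y axis, 1 point per probe set or gene, spread vertically for legibility. Red points passed the threshold, pale points passed it with the replicate block alone, black lines are list medians and the dashed line is the median of all probe sets at 0.06. Sdc1 at 0.92 and Ccnd1 at 1.31 are the red points.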

How the data were processed

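RNA from 16 rat thoracic aortas was measured on 1 array each. The authors deposited 1 table of signal intensities per probe set; per the submitters' processing notes they were made with MAS5, its version and parameters being not given in the sources used here. Deposited intensities were already scaled (trimmed means from 1001.7 to 1002.0), so no scaling was added. The deposited array records, text of no measured unit, gave the rat, chip lot, hybridisation day, station and a note on the amount of cRNA. The note stands on 4 arrays (replicates 2 and 4 at 15 months, replicates 3 and 4 at 28 months). Precision is set by the small number of arrays.

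Probe sets were named by the platform annotation, in which 7006 had 1 symbol, 308 several and 1426 none. Of those with 1 symbol, 6985 were found in the RefSeq gene table, and promoters are from RefSeq, build GRCr8, which holds 5 of the 7 members' promoters. Values were analysed as log2(signal + 16). The 59 controls and all probe sets whose mean was under the 40th percentile (7.31) were dropped. All 16 arrays were fitted with limma 3.58.1 in R 4.3.3 (lmFit, eBayes with a trend, 12 residual degrees of freedom): 5 contrasts between ages, an F test and a slope per month, 2-sided, adjusted over 5250 probe sets. The procedure was tested on simulated data.

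In the array records each replicate number stands for 1 combination of hybridisation day and station, with 1 array of each age. The numbers were therefore used to pair the arrays. Replicates 3 and 4 shared both day 2 and a chip lot. The median correlation of deviations was 0.171 between arrays of the same number (24 pairs, from -0.315 to 0.628, with 13 over 0.1) and -0.034 otherwise. Values with the replicate block are given beside a result where they change it. The members and lists were chosen with earlier results of these data known. Named genes are all members; from each pathway list those past the threshold at 28 against 3 months with or without the block, or else the 2 with the smallest p; and the 3 most correlated probe sets of each member. Alternatives changed the pseudocount, filter, normalization, batch terms, covariates, array weights and the arrays used.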

Additional observations from a re-analysis of the deposited data

Results flagged for a closer look

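In 68 sets of 4 arrays, one per probe set and age, 7 held an array far from the other 3 by Dixon's criterion, where chance gives about 1 in 20, or 3.4. On Fgfr2 Z35138cds_s_at, replicate 3 at 15 months read 784, against 212 to 262 on the other arrays of that age. The same array read 509 on Fgfr2 L19112_at, against 42 to 55. At 28 months L19112_at read 50 on replicate 4, the array with a beta-actin ratio of 3.8201, against 291 to 378. The other 4 were on probe sets too dim to be tested. Pdgfra Z14118cds_g_at read 150 on replicate 1 at 28 months against 21 to 27, and Pdgfra Z14118cds_at read 106 on replicate 1 at 3 months against 20 to 28. Pdgfra rc_AI137657_at read 16 on replicate 2 at 6 months against 7 to 8, and Fgfr1 AF000144_at read 43 on replicate 1 at 15 months against 123 to 135.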

How the results depend on the processing

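The number of member probe sets past the threshold at 28 against 3 months, 0 of 11, became 1 with a pseudocount of 64. It became 2 with the replicate block, the hybridisation day or the chip lot as a term, with only the arrays of the ages compared, and without the 2 arrays at 15 months with an adipocyte marker score below 11, an alternative chosen after seeing the data. It was 3 within day 1 and 5 with array weights, and 0 to 1 with 1 array left out. The number for any difference between the ages, 0, became 1 with the replicate block, with the day as a term and without those 2 arrays, 2 within day 1, 5 with array weights, and 0 to 1 with 1 array left out. The number of slopes, 4, became 2 with no filter, 1 without the 2 arrays of high beta-actin ratio, and 7 with array weights. It was 0 within day 2, with the cRNA note as a covariate, and with the adipocyte marker score as a covariate, with or without the replicate block. With 1 array left out it was 1 to 5. Over all probe sets the counts moved in the same settings. At 28 against 3 months the count, 67, was 71 with a pseudocount of 64, 642 with the replicate block, 465 with the day and 322 with the chip lot. It was 535 with only the ages compared, 486 without the 2 low-score arrays at 15 months, 699 within day 1, 0 within day 2 and 751 with array weights. For any difference between the ages, 34 became 311 with the block and 145 with the day. It became 319 without the 2 low-score arrays, 731 within day 1 and 728 with array weights. That of slopes, 698, ran from 0 within day 2 to 1605 with array weights (1321 with the block). The score's difference between 28 and 3 months ran from -1.76 to -1.23 with 1 array left out, with an exact p of 0.0571 without replicates 1, 2 or 4 at 28 months. The cause of these changes was not tested.

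Directions turned for values near 0. The difference of Pdgfra at 28 against 3 months was -0.0488 within day 2, -0.14 with the score as a covariate and -0.0629 to 0.165 with 1 array left out. Its slope was -0.0049, -0.0027 and -0.0023 to 0.00711 in these settings. The difference of Pdgfrb was 0.69 within day 1, 0.48 with the score, 0.60 with the cRNA note, 0.27 with array weights and 0.50 without the 2 arrays of high beta-actin ratio or without replicate 4 at 28 months alone (-0.312 to 0.50 with 1 array left out). Its slope was 0.028 in the first and 0.023 with the score and without the high-ratio arrays, 0.028 with the cRNA note, 0.016 with array weights, 0.00038 with the score and the block, 0.00022 without the 2 low-score arrays at 15 months, and -0.0122 to 0.018 with 1 array left out. Fgfr2 L19107_s_at was at 0.0132 with the cRNA note, and its slope was 0.0072 within day 1, 0.0025 without the high-ratio arrays and -0.026 to 0.0048 with 1 array left out. The slope of Fgf2 was 0.024 within day 2 and -0.0294 to 0.0014 with 1 array left out, the highest without replicate 2 at 28 months. Of the differences between probe sets of a gene, that of Pdgfra Z14118cds_at ran from -1.08 to 0.0547, that of Fgfr1 D12498_s_at from -0.275 to 0.0804 and that of Fgfr1 AF000144_at from -0.404 to 0.0823 with 1 array left out, the last being 0.412 within day 2. Paired by replicate number, a replicate block added after seeing the data, 0 of the 10 passed, and the test cannot pass with 4 pairs.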
